A study of Monodelphis domestica with 6 samples.

Results

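The HOX cluster genes of Monodelphis domestica, a laboratory opossum, were followed from neonatal skin fibroblasts (neoSFs) into the induced pluripotent stem cells made from them (monoiPSCs). The genes were chosen by symbol, as HOX, a cluster letter from A to D and a number, which gave 27 of the 35665 genes in the deposited tables. There were 11 genes of the HOXA cluster on chromosome 8 of MonDom5, 8 of the HOXB cluster on chromosome 2 and 8 of the HOXD cluster on chromosome 4. By paralog number, 8 were anterior (paralogs 1 to 3), 8 central (4 to 8) and 11 posterior (9 to 13). A RefSeq table of a later assembly, mMonDom1.pri, lists 39 HOX genes and gave the same symbol for each of the 27. The other 12, which are HOXB4, HOXB8, HOXD4 and 9 HOXC genes, were not analysed here.

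HOX genes encode homeodomain transcription factors that give the cells of an animal embryo their position along the head-to-tail axis. They lie in clusters in which the order of the genes matches the order of their expression, from anterior genes, used in the hindbrain and neck, to posterior genes, used in the lumbar region, tail, limb ends and urogenital tract. Each cluster is a copy of one ancestral set, so genes with the same number in different clusters are paralogs. Fibroblasts of adult skin are known to keep the HOX pattern of the body site from which they came, whereas in pluripotent cells the clusters are usually held silent by polycomb proteins.

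RNA was sequenced from 2 neoSF libraries, 1 each of the inbred strains FD2M1 and LSD1, and from 4 monoiPSC libraries, which are the FD2M1 and the LSD1 line at passage 15 (P15) and at passage 25 (P25). The animals were wild type, the cells untreated, and the fibroblasts came from the back skin of neonatal female pups. Each line was reprogrammed from the fibroblasts of its own strain with episomal plasmids that carried human OCT4, SOX2, NANOG, KLF4, LIN28 and cMYC, and was kept without feeder cells in LIF, bFGF and a ROCK inhibitor. Each strain contributed 1 fibroblast culture and 1 line, and the passages of a line are not separate derivations, so p-values measure only the spread between these libraries.

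The neoSF libraries held 14278794 and 16982978 counts and were read in-house as shorter single-end reads, whereas the monoiPSC libraries held 28684754 to 35564261 counts and were read as longer paired-end reads by a sequencing service, so the effects of platform and cell type cannot be told apart. Among the fibroblast markers, 8 of 9 were downregulated in monoiPSCs and TWIST1 was not differentially expressed (DE), and their summed normalized read count (NRC) was 1613150 and 1764890 in neoSFs against 12798 to 16836 in monoiPSCs. All 6 pluripotency markers were upregulated, with a summed NRC of 27.3 to 52.0 in neoSFs and 7945 to 11266 in monoiPSCs. Skeletal muscle markers summed to 1801 and 438 in the FD2M1 and LSD1 neoSFs, to 2094 to 6771 in 3 monoiPSC libraries and to 19999 in the LSD1 line at P25. Melanocyte markers summed to 257 and 407 in neoSFs and 4604 to 15571 in monoiPSCs, almost entirely from DCT. Neural progenitor markers summed to 49.4 and 28.8 in neoSFs and 325 to 574 in monoiPSCs. Posterior mesoderm markers summed to 113 and 178 and to 1301 to 4155, mostly from CDX2, with TBXT, MSGN1 and WNT3A near 0. Keratinocyte markers were at 0 in 3 of 4 monoiPSC libraries and summed to 156 or less elsewhere, and endothelial markers to 263 or less in every library. The part of other cell types in the HOX results below was not tested, and in bulk RNA fewer cells of a type cannot be told from less RNA per cell.

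HOX transcripts were more abundant in monoiPSCs than in fibroblasts. The 27 genes summed to 276 and 175 counts per 1000000 (CPM) in the FD2M1 and LSD1 neoSFs, and to 1145 to 1443 CPM in the 4 monoiPSC libraries. Their summed NRC was 7676 and 4707 in neoSFs and 20982 to 25982 in monoiPSCs, so that the mean of monoiPSCs over that of neoSFs was 3.85 by NRC and 5.94 by CPM. An NRC of at least 20, the study's limit for an expressed gene, was reached by 16 HOX genes in both neoSF libraries and by 21 in all 4 monoiPSC libraries. The genes near 0 in every library were posterior ones. HOXB13 stayed at an NRC of 2.6 or less, HOXD12 was at 0 in 5 of 6 libraries and at 4.0 in the other, and HOXD13 lay between 2.0 and 15.1. At this depth, 3 counts equal an NRC of 4.75 and 5.85 in neoSFs and of 1.55 to 1.88 in monoiPSCs, so the lowest values were at or near a few counts. Levels are compared here for the same gene between libraries and not between genes, because transcript lengths were not used.

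**Figure D1:**
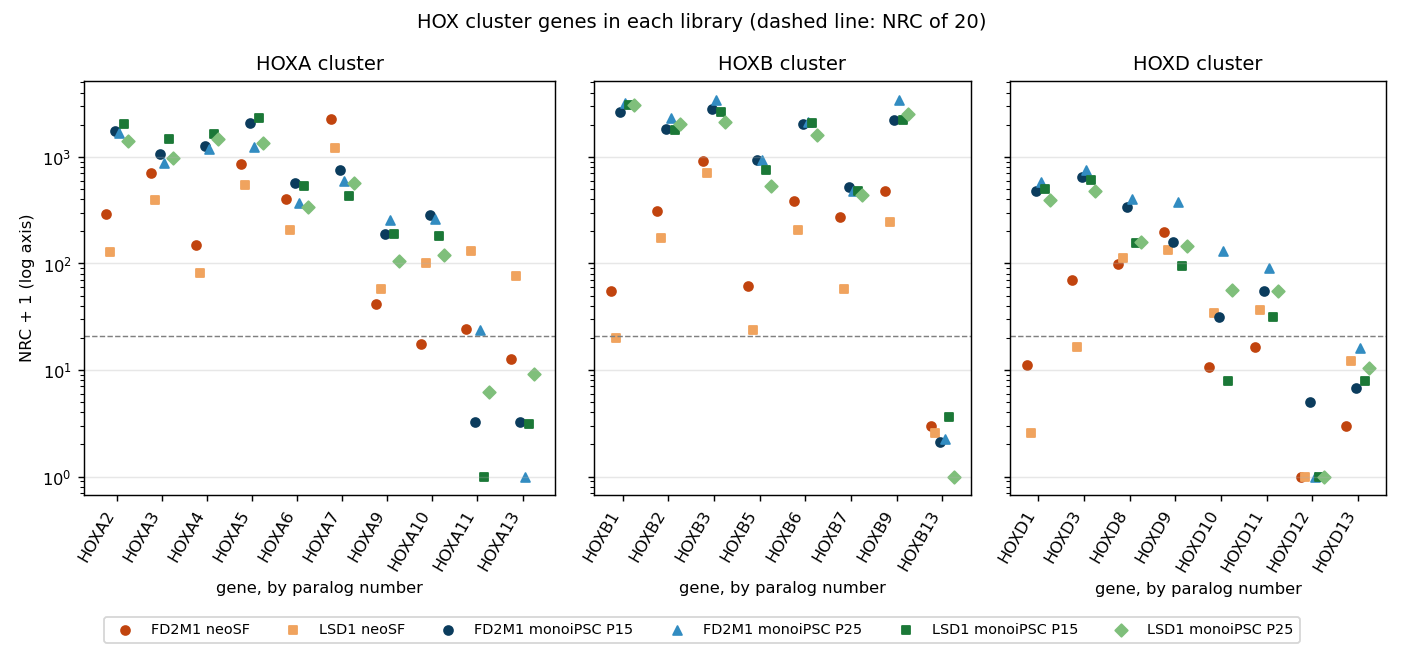
NRC plus 1 (vertical log axis) of 26 HOX genes, ordered by paralog number within its cluster, with 1 point per library and the expression limit of 20 as a dashed line. HOXA2 to HOXA5, HOXB1 to HOXB9, HOXD1 and HOXD3 have all 4 monoiPSC points above both neoSF points, whereas for HOXA7, HOXA11 and HOXA13 all 4 lie below.

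Of the 27 genes, 22 could be tested, and 17 were upregulated, 2 downregulated and 3 not DE in monoiPSCs. Over all 13072 genes tested, 24.3% were upregulated and 21.6% downregulated (45.9% DE in all). The median log2 fold change was 1.96 for the tested HOX genes and 0.08 for all genes tested. The limit for a test was reached in 1 cell type alone, which favours genes that differ, by 6 HOX genes through monoiPSCs (HOXA10, HOXB1, HOXD1, HOXD3 and HOXD11 among them) and by HOXA11 through neoSFs. Among the 15 HOX genes expressed in all 6 libraries, 12 were upregulated, HOXA7 was downregulated, and HOXA6 and HOXD9 were not DE, where 18.8% of the 10979 such genes were upregulated and 19.7% downregulated. Both cell types were fully separated for 19 tested HOX genes, 17 with monoiPSCs higher and 2 (HOXA7 and HOXA11) with monoiPSCs lower, as were 36.1% and 37.1% of all genes tested. All 8 anterior genes were upregulated, and their median was 3.58 on the log2 scale. Of the 8 central genes 6 were upregulated and 1 downregulated, and of the 11 posterior genes only 6 could be tested, of which 3 were upregulated and 1 downregulated.

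Paralog 1, which acts first and furthest forward in the hindbrain and responds directly to retinoic acid in vertebrate embryos, held the largest fold changes of the HOX genes. In all values by library that follow, the FD2M1 neoSFs come before the LSD1 neoSFs, and the monoiPSCs are given as FD2M1 P15, FD2M1 P25, LSD1 P15 and LSD1 P25. HOXD1 had an NRC of 10.2 and 1.6 in neoSFs and of 475, 575, 496 and 389.5 in monoiPSCs. HOXB1, needed for the facial nerve, had an NRC of 54.6 and 19.0 in neoSFs and of 2650, 3213, 3078 and 3046 in monoiPSCs. Both genes were low in both fibroblast libraries and high in each monoiPSC library, with no overlap. The log2 fold change was 6.57 ± 0.54 (SE) for HOXD1 (adjusted p = 7.64e-05) and 6.48 ± 0.41 for HOXB1 (adjusted p = 2.84e-05). Without the FD2M1 neoSFs these values were 8.27 and 7.38, and without the LSD1 neoSFs 5.72 and 5.88, all past the threshold. HOXB1 varied by a coefficient of variation of 8.09% over the 4 monoiPSC libraries.

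The paralogs 2 and 3, which pattern the hindbrain, the pharyngeal arches and the neck, were also upregulated, but from fibroblast levels that were in most cases already above the limit. HOXA2, which sets the identity of the arch behind the jaw, had an NRC of 293 and 126 in neoSFs and of 1758, 1694, 2019 and 1415 in monoiPSCs, a log2 fold change of 3.14 ± 0.36 (SE, adjusted p = 0.000312). Over 14 alternatives, with other processing or with libraries left out, it ranged from 2.66 to 3.85, the highest without the FD2M1 neoSFs. HOXB2 had an NRC of 313 and 174 in neoSFs and of 1836, 2310, 1773 and 2035 in monoiPSCs, a log2 fold change of 3.13 ± 0.28 (adjusted p = 0.000107). The 3 genes of paralog 3 had fold changes of different size, and the differences between genes were not tested. HOXA3, needed for thymus and parathyroid, had an NRC of 705 and 395 in neoSFs and of 1070, 884, 1467 and 982 in monoiPSCs. HOXB3 had an NRC of 913 and 706 in neoSFs and of 2841, 3425, 2636 and 2129 in monoiPSCs. HOXD3, which shapes the first neck vertebrae, had an NRC of 68.3 and 15.4 in neoSFs and of 653, 745, 603 and 475 in monoiPSCs. The groups did not overlap for any of them, and the log2 fold change was 4.01 ± 0.55 for HOXD3 (adjusted p = 0.000688), 1.87 ± 0.23 for HOXB3 (adjusted p = 0.000448) and 1.10 ± 0.30 for HOXA3 (adjusted p = 0.0154). HOXD3 was at 5.37 without the FD2M1 neoSFs and at 3.28 without the LSD1 neoSFs. HOXA3 fell below the 2-fold limit without the LSD1 neoSFs (0.75) and without the LSD1 line at P15 (0.93). In the later assembly HOXB3 overlaps HOXB5 and HOXB6, so the split of counts between these genes is uncertain.

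Among the central genes, used in the neck and trunk, HOXA4 and HOXB5 showed the largest increases. HOXA4 had an NRC of 149 and 80.8 in neoSFs and of 1275, 1176, 1649 and 1475 in monoiPSCs, a log2 fold change of 3.71 ± 0.31 (SE, adjusted p = 8e-05). HOXB5 had an NRC of 60.6 and 22.9 in neoSFs and of 939, 928, 751 and 537 in monoiPSCs, a log2 fold change of 4.38 ± 0.48 (adjusted p = 0.000238). Over the alternatives tried it ranged from 3.80 to 5.24, the highest without the FD2M1 neoSFs. HOXB6 had an NRC of 382 and 205 in neoSFs and of 2036, 2112, 2064 and 1618 in monoiPSCs, a log2 fold change of 2.84 ± 0.29 (adjusted p = 0.000178). These 3 genes were upregulated under each of the 14 alternatives tried.

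The other central genes changed less or in another direction. HOXA5, which is needed for lung development, had an NRC of 858 and 542 in neoSFs and of 2078, 1230, 2329 and 1363 in monoiPSCs. HOXB7 had an NRC of 270 and 56.3 in neoSFs and of 520, 476, 474 and 441 in monoiPSCs. HOXD8 had an NRC of 97.5 and 112 in neoSFs and of 338, 403, 155 and 158 in monoiPSCs. Their log2 fold changes were 1.42 ± 0.34 for HOXA5 (adjusted p = 0.00818), 1.65 ± 0.54 for HOXB7 (adjusted p = 0.0302) and 1.42 ± 0.49 for HOXD8 (adjusted p = 0.0378). Without the LSD1 neoSFs the log2 fold change was 1.13 for HOXA5 (adjusted p = 0.0569) and 0.92 for HOXB7, and HOXB7 also missed the threshold without the FD2M1 P15, FD2M1 P25 or LSD1 P15 library (adjusted p = 0.0578, 0.0562 and 0.0619). HOXB7 was 3.15 without the FD2M1 neoSFs, and HOXD8 missed the threshold without either neoSF library or either FD2M1 monoiPSC library (adjusted p = 0.0760 to 0.141).

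HOXA7 and HOXA6, which lie side by side and act in the thorax, had the lowest log2 fold changes of the central genes. HOXA7 was the clearest downregulated HOX gene, with an NRC of 2262 and 1214 in neoSFs and of 748, 597, 432 and 564 in monoiPSCs. All 4 monoiPSC libraries lay below both fibroblast libraries, and the log2 fold change was -1.47 ± 0.29 (SE, adjusted p = 0.00335). Without the FD2M1 neoSFs it was -0.96, below the 2-fold limit. HOXA6 had an NRC of 404 and 205 in neoSFs and of 568, 371, 529 and 338 in monoiPSCs, and the groups overlapped. Its log2 fold change of 0.67 ± 0.35 did not pass the test (adjusted p = 0.136), but without the FD2M1 neoSFs it was 1.22 (adjusted p = 0.0379). Within the HOXA cluster, the log2 fold change thus went from 3.71 at HOXA4 through 1.42 and 0.67 to -1.47 at HOXA7, and back to 2.00 at HOXA9.

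Of the posterior genes, HOXB9 and HOXA9 were upregulated. HOXB9, used in the thorax, had an NRC of 474 and 242 in neoSFs and of 2199, 3434, 2211 and 2519 in monoiPSCs, a log2 fold change of 2.96 ± 0.34 (SE, adjusted p = 0.000324). HOXA9, also known as a regulator of blood stem cells, had an NRC of 41.0 and 56.4 in neoSFs and of 190, 256, 188 and 105 in monoiPSCs, a log2 fold change of 2.00 ± 0.44 (adjusted p = 0.00567). The groups did not overlap for either gene, but HOXA9 and HOXA10 overlap in the later assembly and the split of their counts is uncertain. HOXD9 did not separate the cell types, with an NRC of 197 and 134 in neoSFs, of 157, 373, 93.3 and 146 in monoiPSCs and a log2 fold change of 0.31 (adjusted p = 0.644).

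HOXA10 and HOXA11, which pattern the lumbar and sacral spine and the uterus, moved in opposite directions, and their calls changed with the processing and with single libraries. HOXA10 had an NRC of 16.6 and 101 in neoSFs and of 281, 263, 180 and 120 in monoiPSCs, a log2 fold change of 1.92 ± 0.71 (SE, adjusted p = 0.0477). With strain as a block, which pairs each line with the fibroblasts of its strain, the same value was 1.92 and the adjusted p 0.0774. The call was also lost with RLE scaling (adjusted p = 0.0509) and with edgeR's filterByExpr (adjusted p = 0.0530), and stood under 5 of the 14 alternatives. Without the FD2M1 neoSFs it was 1.15 (adjusted p = 0.124), without the LSD1 neoSFs 3.85 (adjusted p = 0.00529), and it missed the threshold without the FD2M1 P15, FD2M1 P25 or LSD1 P15 library (adjusted p = 0.0920, 0.0930 and 0.0782). HOXA11 had an NRC of 23.4 and 130 in neoSFs and of 2.2, 22.6, 0 and 5.1 in monoiPSCs, a log2 fold change of -3.27 ± 1.13 (adjusted p = 0.0369), and -3.49 with the strain block (adjusted p = 0.0684). It was -4.03 without the FD2M1 neoSFs and -4.72 without the FD2M1 line at P25. Without the LSD1 neoSFs it was -1.54 (adjusted p = 0.427), and it also missed the threshold without the FD2M1 P15, LSD1 P15 or LSD1 P25 library (adjusted p = 0.0781, 0.0625 and 0.0767). The highest monoiPSC value of HOXA11 thus lay just under the lower fibroblast value.

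The remaining posterior genes were low. HOXA13, a gene of the digits and the cloacal region, was below the limit for a test, with an NRC of 11.7 and 74.5 in neoSFs and of 2.2, 0, 2.1 and 8.2 in monoiPSCs, so that all 4 monoiPSC libraries lay below both fibroblast libraries. HOXD10 had an NRC of 9.8 and 33.5 in neoSFs and of 30.3, 131, 6.8 and 55.6 in monoiPSCs, and the groups overlapped. HOXD11 had an NRC of 15.6 and 35.6 in neoSFs and of 54.3, 89.2, 30.7 and 53.8 in monoiPSCs, and its log2 fold change of 1.25 did not pass the test (adjusted p = 0.0936, and 0.0758 at 1.96 without the LSD1 neoSFs).

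**Figure D2:**
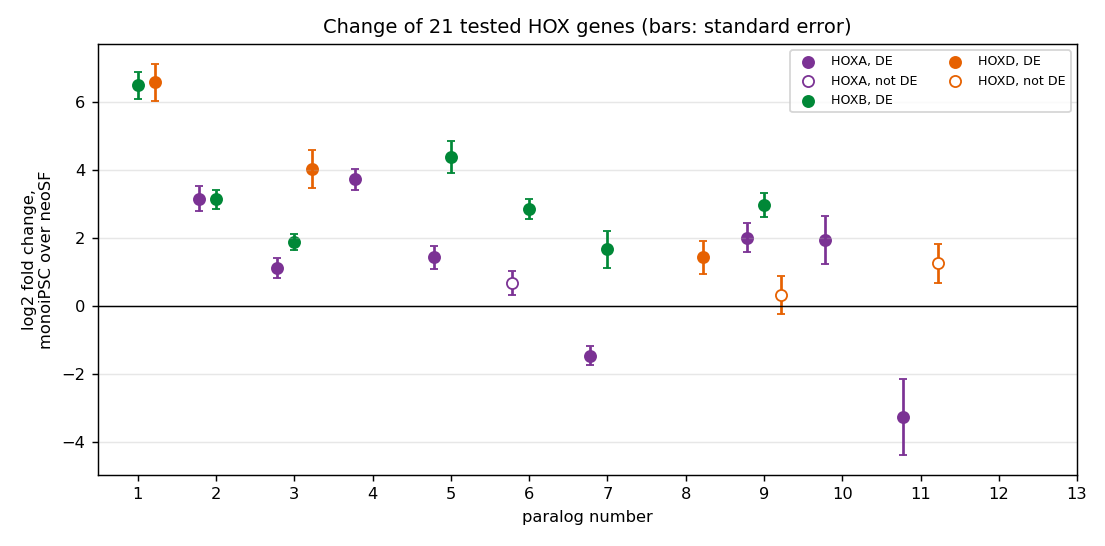
Log2 fold change of monoiPSCs over neoSFs (vertical axis, bars as standard error) for 21 tested HOX genes against their paralog number (horizontal axis), coloured by cluster and filled where DE. HOXD1 and HOXB1 lie highest, at 6.57 and 6.48, and HOXA7 and HOXA11 are the genes below 0.

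By cluster, all 7 tested HOXB genes were upregulated (median log2 fold change 2.96). In the HOXA cluster 7 of 10 were upregulated and 2 downregulated (median 1.67), and in the HOXD cluster 3 of 5 were upregulated and none downregulated (median 1.42). Spearman's rho between paralog number and log2 fold change was -0.68 over the 22 tested genes, -0.62 over the 10 of HOXA and -0.57 over the 7 of HOXB. These genes share the same 6 libraries, and 5 posterior genes are missing from the 22, so the coefficients are descriptions. Log2 fold changes above 3, which is more than 8-fold, occurred in 8 of the 22 tested HOX genes, and in 9.2% of all genes tested. HOXD1, HOXB1, HOXB5, HOXD3, HOXA4, HOXA2 and HOXB2 were among them.

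The 2 fibroblast libraries differed in HOX genes by paralog number. With 1 library per strain there is no test, and the folds compare these libraries. Of the 23 HOX genes that reached an NRC of 20 in either, 11 differed at least 2-fold, against 15.9% of all such genes. All 14 genes of paralogs 1 to 7 were higher in the FD2M1 neoSFs, 6 of them at least 2-fold, and all 5 genes of paralogs 10 to 13 were at least 2-fold higher in the LSD1 neoSFs, where 8.45% and 7.45% of all such genes passed 2-fold in these directions. Among the genes higher in FD2M1 were HOXB7 (4.80-fold), HOXD3 (4.45-fold), HOXB1 (2.87-fold), HOXB5 (2.65-fold) and HOXA2 (2.32-fold). Higher in LSD1 were HOXA13 (6.36-fold), HOXA10 (6.09-fold), HOXA11 (5.55-fold), HOXD10 (3.44-fold) and HOXD11 (2.28-fold). In the FD2M1 neoSFs these genes had 6, 8.5, 12, 5 and 8 counts. In the LSD1 neoSFs HOXD3, HOXB1 and HOXB5 had 9.7, 12 and 14.5 counts, so the folds of all these genes rest on few counts. The 4 genes of paralogs 8 and 9 differed less than 2-fold, with HOXD8 and HOXA9 higher in LSD1 and HOXB9 and HOXD9 in FD2M1. Regional factors of skin and limb were read in the same libraries. The NRC of PITX1, a hindlimb factor, was 25.6 in FD2M1 and 233 in LSD1, that of LMX1B, a factor of the dorsal limb, was 11.7 and 77.5, and that of TBX5, a forelimb factor, was 15.5 and 35.2, whereas TBX18 had 959 and 109 and TBX4 had 2.0 and 1.6. Summed markers of other cell types also differed between these libraries, in part through single genes. Those of skeletal muscle summed to an NRC of 1801 in FD2M1 and 438 in LSD1. Keratinocyte markers summed to 56.6 and 156, mostly from DSG3 (46.8 and 148), with KRT14 at 2.9 and 4.5 and TP63 at 6.8 and 3.7. Endothelial markers summed to 263 and 160 (KDR at 210 and 28.8, VWF at 46.2 and 109). Melanocyte markers summed to 257 and 407, mostly from MITF (223 and 382). TYRP1 was at 3.9 and 4.8, whereas TYR (5.9 and 0), MLANA (21.8 and 18.5) and DCT (2.0 and 1.6) were lower in LSD1. The part of other cell types in the HOX contrast was not tested.

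**Figure D3:**
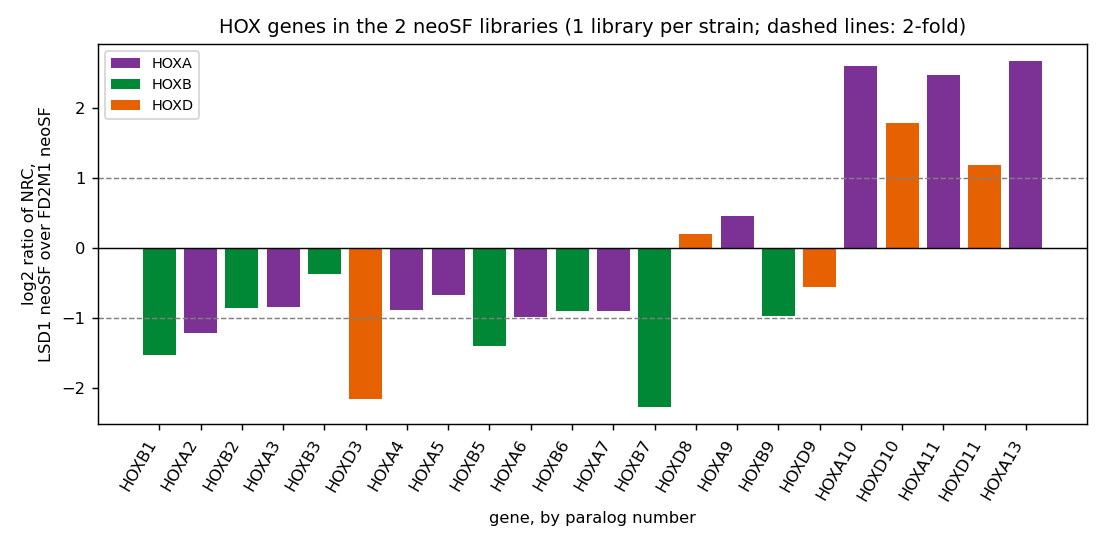
Log2 ratio of NRC in the LSD1 neoSFs over the FD2M1 neoSFs (vertical axis) for 22 HOX genes that reached an NRC of 20 in either library, ordered by paralog number and coloured by cluster, with 1 library per strain. The 13 genes plotted of paralogs 1 to 7 have bars below 0 and the 5 genes of paralogs 10 to 13 bars above the 2-fold line.

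The strain difference of the fibroblasts was then set beside that of the monoiPSC lines. HOXA10, 6.09-fold higher in LSD1 than in FD2M1 neoSFs, was lower in the LSD1 line, with NRC ratios of 0.641 at P15 and 0.457 at P25. HOXB7, 4.80-fold higher in FD2M1 neoSFs, differed little between the lines, with ratios of 0.911 and 0.928. A test of whether the change from neoSF to monoiPSC differed between strains called 0 of the 22 HOX genes at an adjusted p of 0.05 or less, and 0.0841% of all genes. At an unadjusted p under 0.05, 9 HOX genes and 9.13% of all genes passed. The difference of the log2 changes, LSD1 minus FD2M1, was -3.56 for HOXA10 and 2.11 for HOXB7. With 1 neoSF library per strain, the error of this test came only from the passages within each line. Spread between fibroblast cultures did not enter it. The counts from this test therefore cannot decide whether the change differs between strains, and the differences describe these libraries.

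No HOX gene was DE between passages. From P15 to P25, edgeR called 0 of 21 tested HOX genes, as it called 0 of 12252 genes (0%), and DESeq2 called 0 HOX genes and 0.939% of all genes. At an unadjusted p under 0.05, 4 of the 21 HOX genes passed, and 9.35% of the 12252 genes. In both lines HOXA5 was lower at P25, at 0.592 of its P15 NRC in FD2M1 and 0.585 in LSD1, a log2 fold change of -0.78 (adjusted p = 0.259). DESeq2 gave HOXA5 an adjusted p of 0.0448, with a change under 2-fold. HOXA6 (log2 fold change -0.65) and HOXA3 (-0.44) were the neighbours with a low unadjusted p, and HOXD9 was at 0.93. HOXD10, below the limit for a test, had an NRC of 30.3 at P15 and 131 at P25 in FD2M1, and of 6.8 and 55.6 in LSD1.

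Between the lines, edgeR again called 0 of the 21 HOX genes and 0 of 12252 genes. An unadjusted p under 0.05 was found for 4 of the 21 HOX genes, and for 14.2% of the 12252 genes. HOXD8 was lower in the LSD1 line at both passages, at 0.457 and 0.392 of the FD2M1 NRC, a log2 fold change of -1.24 (adjusted p = 0.170). It was the 1 HOX gene that DESeq2 called (adjusted p = 0.0297), with 1.57% of all genes. HOXD9 (-1.05), HOXA10 (-0.88) and HOXB5 (-0.55) were the other 3. The coefficient of variation over the 4 libraries was 6.79% for HOXB7, 48.0% for HOXD8, 64.4% for HOXD9 and 96.4% for HOXD10.

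**Figure D4:**
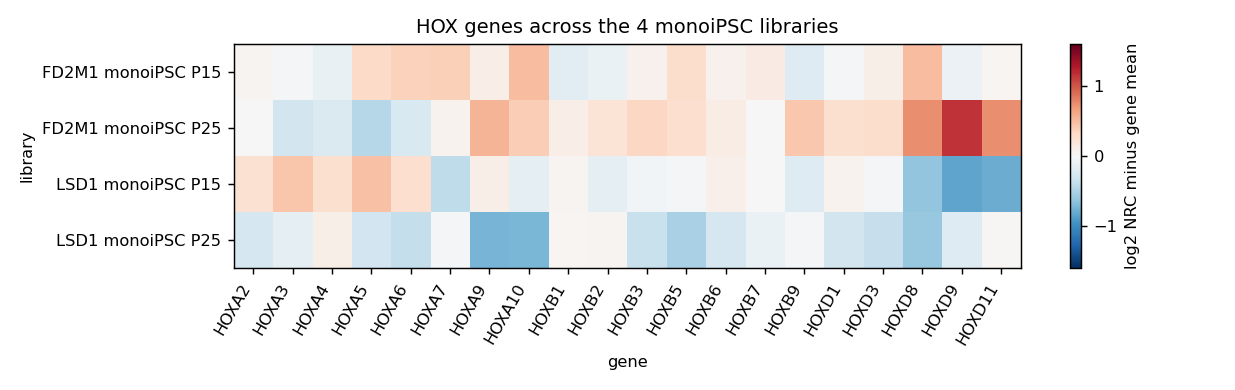
Log2 NRC of 20 HOX genes that passed the limit in all 4 monoiPSC libraries (columns), relative to each gene's mean over these libraries, with 1 row per library and red above the mean. HOXD8, HOXD9 and HOXD11 show the widest spread, each highest in the FD2M1 line at P25, while HOXB7, HOXB1 and HOXB2 stay close to their mean.

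HOX proteins bind DNA together with TALE homeodomain cofactors of the PBX, MEIS and PKNOX families. In this and the following lists, counts are to be read against the 24.3% of all tested genes that were upregulated and the 21.6% downregulated. All 8 cofactors were tested, 5 were upregulated and none downregulated. The NRC of PBX3 was 321 and 286 in neoSFs and 1237, 981, 1600 and 1345 in monoiPSCs, a log2 fold change of 2.18 (adjusted p = 0.000242). PKNOX2 (2.09), PBX2 (1.46), MEIS1 (1.43) and PBX4 (1.30) were the others, while MEIS2 (0.63) and PKNOX1 (-0.63) did not reach 2-fold. MEIS1 missed the threshold without the FD2M1 neoSFs, where its log2 fold change was 1.05 (adjusted p = 0.0501). PKNOX2, with an NRC of 352 and 60.2 in neoSFs, was at 3.84 without the FD2M1 and 1.31 without the LSD1 neoSFs, and missed the threshold with the P15 or the P25 libraries alone.

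CDX genes, which are related to HOX genes and drive central and posterior HOX expression in embryos, were among the linked homeobox genes. Of these 8 genes, 4 were tested, 2 were upregulated and none downregulated (24.3% and 21.6% of all genes tested). The upregulated genes, CDX2 and GSX1, reached the limit for a test through monoiPSCs alone, which favours genes that differ. The NRC of CDX2 was 3.9 and 0 in neoSFs and 3928, 3991, 2662 and 1124 in monoiPSCs, at least 537-fold higher against 3 counts per neoSF library. GSX1 was at 0 in both neoSF libraries and at 92.9, 72.3, 45.8 and 28.6 in monoiPSCs, at least 11.0-fold higher. CDX4 was below the limit for a test, with an NRC of 0 in both neoSF libraries and of 112, 54.5, 62.5 and 3.8 in monoiPSCs. CDX2, CDX4 and GSX1 were lowest in the LSD1 line at P25, whose HOX sum of 1145 CPM was also the lowest of the 4. GSX2, below the limit for a test, was highest in that library, at an NRC of 13.3. Not every HOX gene was lowest there, as HOXB9 had an NRC of 2519, against 2199 in the FD2M1 line at P15. Whether the levels of CDX and HOX genes are linked was not tested.

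Genes beside the clusters that have no homeobox were mixed, with 5 of 10 upregulated and 2 downregulated (24.3% and 21.6% of all genes tested). Of the upregulated genes, SKAP1 and TTLL6 reached the limit for a test through monoiPSCs alone, which favours genes that differ. Beside HOXB, SKAP1 was at least 6.52-fold higher in monoiPSCs and TTLL6 had a log2 fold change of 4.22, but SNX11 was downregulated at -1.64. TTLL6 was at 3.71 without the FD2M1 and at 5.15 without the LSD1 neoSFs. Beside HOXA, SKAP2 was at 2.38 and HIBADH at -1.32. Beside HOXD, MTX2 was at 1.79, ATP5MC3 at 1.25 and LNPK at -0.43, of which LNPK was not DE.

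Polycomb proteins keep HOX genes silent by methylating histone H3 and compacting chromatin. Of 16 polycomb genes, 6 were upregulated, 3 downregulated and 7 not DE (median log2 fold change 0.45), which is 9 of 16 DE where 45.9% of all genes tested were DE. The methyltransferase EZH2 was at 2.56 (adjusted p = 3.84e-05) and its alternative EZH1 at -1.29 (adjusted p = 0.000816). The other subunits EED (1.44), SUZ12 (1.33) and JARID2 (1.77) were upregulated, as was the reader CBX2 (2.94), whereas CBX6 (-1.09) was downregulated. CBX2 ranged from 2.48 to 3.61 over the 14 alternatives, the highest without the FD2M1 neoSFs. CBX6 missed the threshold without the FD2M1 neoSFs (-0.75). PCGF2 (1.03) lay at the 2-fold limit and was not DE under 7 of the 14 alternatives, RLE scaling, DESeq2 and limma among them.

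Trithorax proteins and H3K27 demethylases keep HOX genes active. Of these 10 genes, 3 were upregulated, 1 downregulated and 6 not DE, where 24.3% and 21.6% of all genes tested were up- and downregulated. The methyltransferase KMT2A was at -1.18 (adjusted p = 0.000927), its chromatin partner PSIP1 at 2.21 (adjusted p = 0.000176) and the subunit ASH2L at 2.11 (adjusted p = 0.000103). The demethylase KDM6B was at 1.08 (adjusted p = 0.0317), which was missed without the FD2M1 neoSFs, without either FD2M1 monoiPSC library and without the LSD1 line at P15, with 0.68 as the lowest value.

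Retinoic acid induces anterior HOX genes in embryos. Of its 5 genes, 4 were tested, none was upregulated and 2 were downregulated (21.6% of all genes tested). ALDH1A3, which makes retinoic acid, had an NRC of 7691 and 515 in neoSFs and between 21.5 and 53.3 in monoiPSCs, a log2 fold change of -6.61 (adjusted p = 0.000706) that was -3.62 without the FD2M1 and -7.51 without the LSD1 neoSFs. The receptor RARB, itself a target of retinoic acid, was at -2.19 (adjusted p = 0.0203), at -2.92 without the FD2M1 neoSFs, and not DE without the LSD1 neoSFs (-0.62) or the LSD1 line at P15 (adjusted p = 0.0550). ALDH1A2 (1.44, adjusted p = 0.0683) was not DE. Of the 8 regional factors of skin and limb, 5 were tested. TBX18 (-7.12), TBX15 (-3.80) and PITX1 (-3.63) were downregulated and EN1 (1.71) upregulated, against 21.6% and 24.3% of all genes tested. The downregulated genes reached the limit for a test through neoSFs alone, which favours genes that differ, so their count is not comparable with that share. TBX18 was at -4.84 without the FD2M1 and -7.97 without the LSD1 neoSFs, and PITX1 at -4.48 and, not DE, at -1.27.

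**Figure D5:**
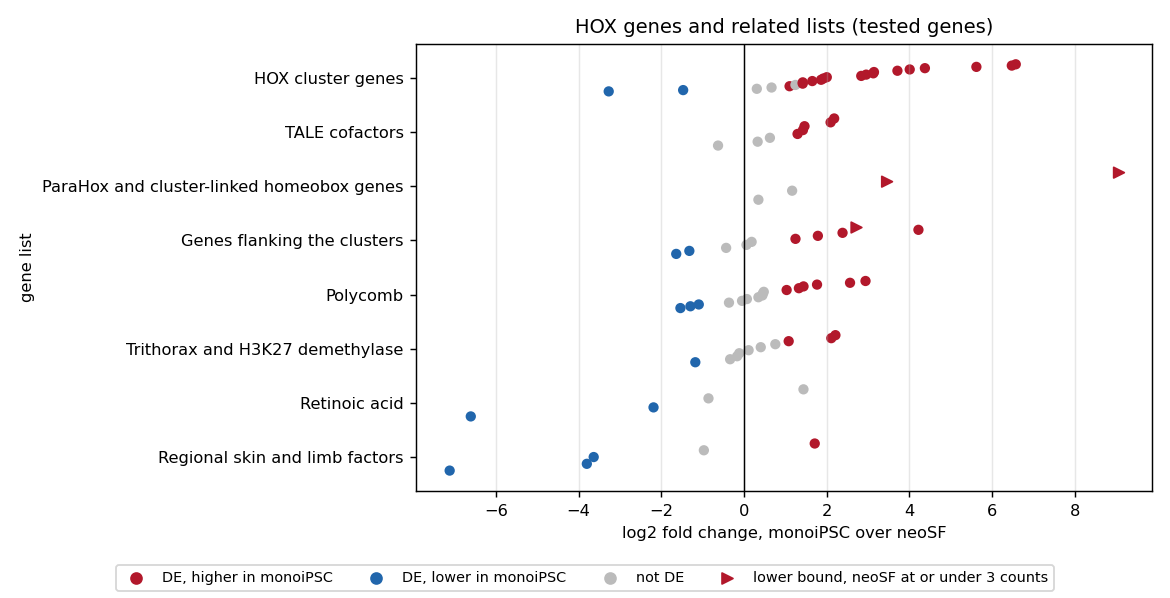
Log2 fold change of monoiPSCs over neoSFs (horizontal axis) of each tested gene in the HOX clusters and in 7 related lists (vertical axis), with 1 point per gene coloured by its call. Arrowheads mark lower bounds for CDX2, GSX1 and SKAP1. HOX genes and TALE cofactors lie mostly to the right of 0, polycomb and trithorax genes on both sides.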

How the data were processed

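The data are RNA-seq of 2 neoSF and 4 monoiPSC libraries. Reads were aligned by the authors with StrandNGS to the MonDom5 genome, and they deposited estimated counts per RefSeq gene, of which 86.8% above 0 were fractional, and log2 values after DESeq normalization. NRC is 2 to the power of the deposited log2 value, with values below 1 set to 0. Whether strand was used in counting is not given in the sources used here. Counts were rounded and tested with edgeR 4.0.16 (quasi-likelihood, TMM scaling, R 4.3.3) over genes that reached an NRC of 20 in each neoSF library or in each of the 4 monoiPSC libraries. DE means a p of 0.05 or less after Benjamini-Hochberg adjustment and a change of 2-fold or more. For passages and lines, the 4 monoiPSC libraries were fitted with the other factor as covariate. DESeq2 1.42.0 and limma 3.58.1 were alternatives. The fits were tested on simulated data. TMM factors were 0.78 and 0.80 in neoSFs and 1.10 to 1.17 in monoiPSCs. Every HOX gene is accounted for, with values by library where its NRC reached 20 in any library, and other genes come from lists of related genes and cell type markers. Members and lists were chosen with earlier results of these data known. Each line came from the fibroblasts of its strain, which pairs the libraries, and the strain deviations of neoSFs and monoiPSCs correlated at 0.04 over 13072 genes. RefSeq mMonDom1.pri served for names and neighbours only, since it is another assembly. The values of some single genes are not reported here.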

Additional observations from a re-analysis of the deposited data

Results flagged for a closer look

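HOXB6 had an NRC of 1618 in the LSD1 line at P25, which stood apart below the other 3 monoiPSC libraries (2036 to 2112). It was the only 1 of 23 HOX genes examined for a single library far from the other 3 monoiPSC libraries, and chance gives about 1 in 20.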

How the results depend on the processing

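The number of DE HOX genes between neoSFs and monoiPSCs was 19 and ranged from 13 (P25 libraries alone) to 20 (no expression filter), with 14 to 18 when 1 library was left out, the lowest without the LSD1 neoSFs. With strain as a replicate block it was 17, with HOXA10 and HOXA11 lost and no other HOX call changed. It was 13 when only genes expressed in all 6 libraries counted, an alternative chosen after seeing the data. HOXD9, not DE at 0.31, changed sign to -0.23 without the FD2M1 line at P25 and ranged up to 0.74, and was -0.32 with the P15 libraries alone; the cause was not tested. DESeq2 called 1 HOX gene between lines, where edgeR called 0. Of the 11 HOX genes past 2-fold between neoSF strains, 5 passed 4-fold and 4 had an NRC of at least 100. With a limit of 100 in place of 20, 10 HOX genes were expressed in both neoSF libraries. The median of all genes tested was 0.08 with TMM and 0.03 with RLE scaling. In the FD2M1 neoSFs 3 counts equal an NRC of 5.85, so genes near the limit of 20 rest on few counts there.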

Other observations

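The 4 microRNA genes of the HOX clusters found by symbol, MIR10A, MIR10B, MIR196A and MIR196B, were listed at 0 in all 6 libraries. The paper describes poly-A enrichment for the neoSF libraries, which is not made for small RNAs. These values therefore do not show that the microRNAs were absent.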
